A study of Mus musculus with 2 samples.

Results

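The fatty acid elongases Elovl1 to Elovl6, the front-end desaturases Fads1, Fads2 and Fads3 and the stearoyl-CoA desaturase Scd2 are the genes described here. They are 10 of the 12393 genes that the arrays read through probe sets with a single gene symbol. They were chosen by name, and some relatives with such a probe set, among them Scd1, are described separately. All 10 were found, through 19 probe sets. Testis RNA of wild type mice was compared with that of UBR2-/- mice, which lack UBR2, a ubiquitin ligase that recognises destabilising protein ends. Both genotypes were of a mixed 129SV and C57BL strain and 17 days old, when the leading germ cells are passing through meiosis. Each genotype had 1 Affymetrix mouse genome 430A 2.0 array, on which labelled RNA binds sets of short probes. The labels speak of 2 testes per genotype, taken from different animals of a litter. The sources used here do not say whether RNA was pooled or which part of Ubr2 was deleted.

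Elongases of the ELOVL family carry out the condensing step that lengthens a fatty acyl chain in the endoplasmic reticulum, and each member prefers chains of certain length and saturation. Front-end desaturases add double bonds between an existing one and the carboxyl end. Alternating steps of both kinds turn dietary essential fatty acids into the long polyunsaturated chains, such as arachidonic and docosahexaenoic acid. The testis is known for phospholipids and sphingolipids rich in such chains. Male mice without Elovl2 or without Fads2 are known to be infertile, and Sertoli cells, the somatic nurse cells of the tubules, are known to be active in making these chains.

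Values are signals, the brightness of a probe set in linear units on the authors' scale, and ratios are UBR2-/- over wild type on the log2 scale. With 1 array per genotype no test was possible, no p-value is given, and a difference is one between 2 arrays, with no measure of how animals vary. Signals below a floor, set at the 40th percentile of the array (24.4 in wild type, 24.7 in UBR2-/-), were raised to it before a ratio was taken. A gene was compared where the mean signal of its brightest probe set reached the mean floor of 24.5, which 8091 genes did. Both arrays had nearly the same median signal, 48.7 and 48.8, and the same trimmed mean of 150.04. The targeted gene Ubr2 had 57.2 in wild type and 14.3 in UBR2-/- testes in its only probe set, at least 2.32-fold lower. On the deposited scale the median ratio of all compared genes was 0.07, with quartiles of -0.17 and 0.28. The 42 spike-in control probe sets had a median ratio of 0.35, and scaling to them instead moved the all-gene median to -0.28. Members are therefore also given relative to the all-gene median.

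Promoter windows in the RefSeq table of build GRCm38.p6 matched 7 of the 10 genes, with 9 windows, and Elovl3, Fads1 and Scd2 had no entry. Elovl2 lay on the other side of 0 from Elovl5 and Fads2 on the deposited scale, though with spike-in scaling the brightest probe set of each lay below 0. For this reason, and because these genes encode enzymes of the same route to polyunsaturated chains, their windows are shown. Each is printed 5′ to 3′ from 250 bases before to 30 bases after the annotated start, Elovl2 at chr13:41220374-41220653, minus strand, Elovl5 at chr9:77917115-77917394, plus strand, and Fads2 at chr19:10101474-10101753, minus strand, with capitals marking the NF-Y box CCAAT, the Sp1 core GGGCGG, the E-box CACGTG or the cyclic AMP response element TGACGTCA on either strand.
Elovl2: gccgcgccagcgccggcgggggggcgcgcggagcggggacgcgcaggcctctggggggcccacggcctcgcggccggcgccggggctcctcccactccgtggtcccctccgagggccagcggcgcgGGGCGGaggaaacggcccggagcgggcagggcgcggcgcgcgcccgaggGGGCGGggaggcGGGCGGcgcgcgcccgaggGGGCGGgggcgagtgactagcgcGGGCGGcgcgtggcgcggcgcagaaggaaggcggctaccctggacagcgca
Elovl5: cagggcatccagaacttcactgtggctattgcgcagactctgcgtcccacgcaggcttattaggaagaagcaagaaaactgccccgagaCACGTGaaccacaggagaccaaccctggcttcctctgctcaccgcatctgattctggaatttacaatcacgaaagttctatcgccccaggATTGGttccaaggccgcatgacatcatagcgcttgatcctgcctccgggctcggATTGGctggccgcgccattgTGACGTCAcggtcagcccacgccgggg
Fads2: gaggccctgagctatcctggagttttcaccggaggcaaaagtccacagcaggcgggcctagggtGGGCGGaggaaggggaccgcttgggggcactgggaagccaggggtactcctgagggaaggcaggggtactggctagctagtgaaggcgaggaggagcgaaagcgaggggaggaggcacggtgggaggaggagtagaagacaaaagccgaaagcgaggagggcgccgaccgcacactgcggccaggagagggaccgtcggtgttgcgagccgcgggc

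The marked letters did not overlap one another in these windows, and the windows differed in them. The printed Elovl2 window was 84.7% G and C over its 300 bases, against a median of 52.7% over all windows, and held the Sp1 core 5 times. A second Elovl2 window in the table, from a start further downstream, was 76.7% G and C and held none of the letters searched. Elovl5 held CCAAT on the reverse strand, as ATTGG, at 2 places, the E-box once and the full cyclic AMP response element once, from base 4 to base 11 after the start. Fads2 held the Sp1 core once and none of the other letters searched. Over all 32851 windows of the table, 37.4% held the NF-Y box, 35.7% the Sp1 core, 7.15% the E-box, 1.79% the cyclic AMP response element and 35% the MYB letters CNGTTG, on either strand. Of the 9 windows of these genes, 4 held the NF-Y box, 6 the Sp1 core, 2 the E-box (Elovl4 and Elovl5), 1 the cyclic AMP response element (Elovl5) and 1 the MYB letters (Fads3). A match describes the letters and is not evidence of binding.

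Of the 10 genes, 7 were bright enough to be compared, and all 7 lay within 2-fold between the genotypes. None was at least 2-fold lower, where 3.52% of all compared genes were, and none was at least 2-fold higher, where 0.346% were. At those shares fewer than 1 of 7 genes would be past either threshold, so a count of 0 does not set the family apart. On the deposited scale 5 of the 7 had a ratio above 0 and 2 below, while 58.9% of all compared genes lay above 0. With spike-in scaling the brightest probe sets of all 7 lay below 0, as described after the single genes. The median of the 7 was 0.20, which is 0.12 above that of all genes. The lowest was Elovl2 at -0.14 and the highest Fads1 at 0.31.

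**Figure D1:**
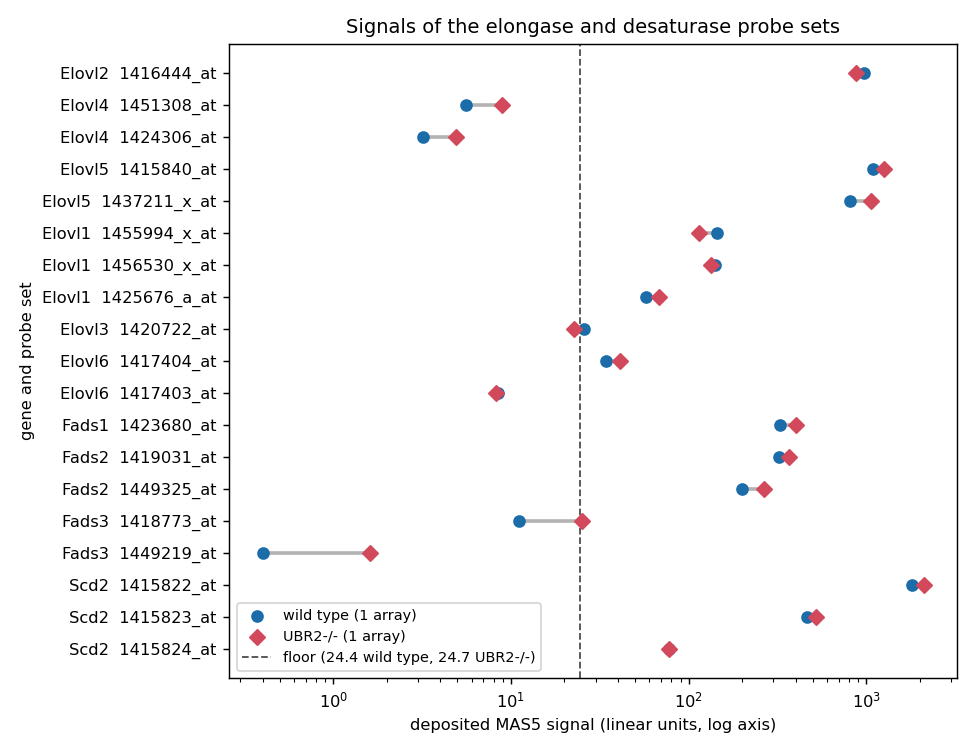
Deposited signal (linear units, log axis) of each of the 19 probe sets of the 10 genes in wild type (circles) and UBR2-/- (diamonds), with the wild type floor of 24.4 as a dashed line (24.7 for UBR2-/-). In 13 probe sets of 7 genes the signals lie above the floor on both arrays and close together, while those of Elovl3, Elovl4 and Fads3 lie near or below the floor.

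Among the elongases of polyunsaturated chains, Elovl2, which extends long polyunsaturated precursors, had a signal of 965.9 in wild type and 879.2 in UBR2-/- testes. It was thus 1.10-fold lower on the UBR2-/- array, a ratio of -0.14, and lay 0.21 below the all-gene median, at percentile 27.5 of all compared genes. Elovl2 was read by 1 probe set, so no second reading exists.

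Elovl5, which acts on the shorter polyunsaturated precursors, lay above 0 on the deposited scale. Its brightest probe set had 1097 in wild type and 1256.1 in UBR2-/- testes, 1.15-fold higher with a ratio of 0.20. With spike-in scaling this probe set lay below 0, at -0.16. The other probe set had 805.7 and 1055.5, 1.31-fold higher with a ratio of 0.39. Because this exceeds the spike-in median ratio of 0.35, the second reading stays above 0 with spike-in scaling. Both readings of Elovl5 were thus above the all-gene median and above the ratio of Elovl2. The name of the second probe set ends in _x_at, which marks probes that may also bind other transcripts.

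Elovl4, which makes the very long chains known from retina, skin and testis, was below the floor on both arrays in both of its probe sets. Its signals were 5.6 and 8.9 in one and 3.2 and 4.9 in the other, wild type first. No ratio is given for it, and its mRNA was not measurable above the floor with these probes.

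Among the elongases of saturated and monounsaturated chains, the 3 probe sets of Elovl1, an enzyme that makes the very long saturated chains of sphingolipids, disagreed. The brightest had 140.8 in wild type and 134.1 in UBR2-/- testes, a ratio of -0.07. Another had 143.6 and 115, a ratio of -0.32, and the dimmest had 57.6 and 68.5, a ratio of 0.25. Elovl1 thus had readings on both sides of 0, and no direction can be given for it. The names of all 3 end in _x_at or _a_at, which mark probes that may bind several transcripts.

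Elovl6, which extends palmitate to stearate, was dim. Its brighter probe set had 34.1 in wild type and 41.1 in UBR2-/- testes, 1.21-fold higher with a ratio of 0.27, and its other probe set was below the floor on both, with 8.5 and 8.2. Elovl6 was thus just bright enough to be compared. Elovl3, known for its part in skin and brown fat, was just too dim, with 25.6 in wild type and 22.5 in UBR2-/- testes, the latter below the floor.

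The front-end desaturases Fads1 and Fads2 are neighbours on chromosome 19. Fads3 is next to Fads2, with no other protein-coding gene between the 3 in the RefSeq table. By their brightest probe sets, Fads1 and Fads2 were both higher in UBR2-/- testes on the deposited scale and lower with spike-in scaling. Fads2, which places the first of the added double bonds, had 322.9 in wild type and 368.5 in UBR2-/- testes, a ratio of 0.19. The second probe set of Fads2 had 200.1 and 265.1, a ratio of 0.41. Because this exceeds the spike-in median ratio of 0.35, this reading stays above 0 with spike-in scaling. Both readings of Fads2 lay above the all-gene median.

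Fads1, which acts after Fads2 on the elongated product, had 324.6 in wild type and 402.5 in UBR2-/- testes in its only probe set. This was 1.24-fold higher, a ratio of 0.31, or 0.24 above the all-gene median, and the highest percentile in the family, 78.5.

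Fads3, a relative that acts on the sphingoid base of ceramides, was barely measurable. Its brighter probe set had 11.1 in wild type and 25.2 in UBR2-/- testes, the first below the floor and the second just above it, and its other probe set had 0.4 and 1.6. With these signals Fads3 was not compared. With the floor lowered to the 25th percentile its ratio was 1.18, which made it the 1 gene of the family past 2-fold.

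Scd2, which adds the first double bond to saturated chains, had 1817.4 in wild type and 2120.8 in UBR2-/- testes in its brightest probe set, a ratio of 0.22. The second probe set had 466.1 and 519.2, a ratio of 0.16, and the dimmest had 78 and 77.9, a ratio of 0. Its readings thus ranged from equal signals to 1.17-fold higher, and the ratio of the gene was 0.09 with quantile normalization, 0.09 with loess and 0.13 with probe sets averaged.

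**Figure D2:**
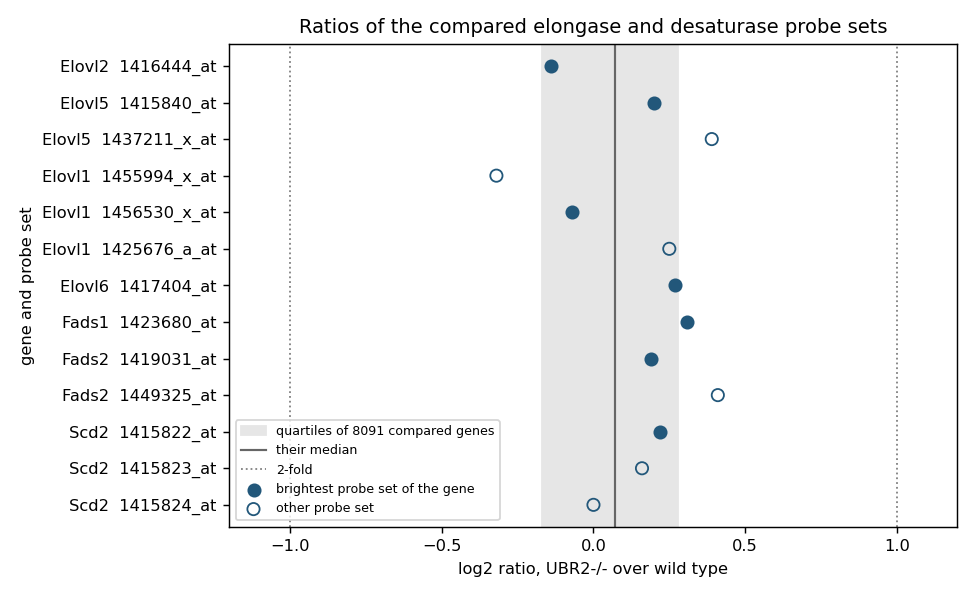
Log2 ratio, UBR2-/- over wild type, of the 13 compared probe sets (filled, brightest of the gene; open, others), with the quartiles and median of all 8091 compared genes as a grey band and line and 2-fold as dotted lines. All points lie within 2-fold; the probe sets of Elovl1 spread from -0.32 to 0.25, while both of Elovl5 and both of Fads2 lie above the all-gene median.

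A yardstick for these small differences is how far probe sets of the same gene disagree. Over 2894 genes, the SD of 1 probe set's ratio, derived robustly from the difference between the 2 brightest probe sets of a gene, came to 0.25 in dim genes (mean signal under 106), 0.19 in intermediate ones (106 to 289) and 0.13 in bright ones. It leaves out any error between arrays or animals, so the full error of a difference between genotypes can be larger. Probe sets that also bind other transcripts add to this SD, which is therefore only a rough guide. Of the 7 compared genes, 4 (Elovl1, Elovl5, Elovl6 and Fads2) lay within 1 such SD of the all-gene median by their brightest probe set. The other 3 were Elovl2 at -0.21, Fads1 at 0.24 and Scd2 at 0.15 relative to that median, against an SD of 0.13. For bright genes as a whole the quartiles were -0.14 and 0.23, so of these 3 Fads1 alone lay above the upper quartile, and Elovl2 lay at the lower one. Other probe sets of Elovl5 (0.39), Fads2 (0.41) and Elovl1 (-0.32) lay farther than 1 SD from the all-gene median. The dimmest of Elovl1 (0.25) and the others of Scd2 (0.16 and 0) lay within 1 SD.

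The raw direction of the family depended on scaling, while the side of the all-gene median on which each gene's brightest probe set lay did not. On the deposited scale and with scaling to the array median, quantile normalization and loess, Elovl1 and Elovl2 were below 0 and Elovl5, Elovl6, Fads1, Fads2 and Scd2 above 0. With spike-in scaling all 7 were below 0 by their brightest probe sets, from -0.49 for Elovl2 to -0.04 for Fads1. Relative to the all-gene median, which was then -0.28, the same 5 lay above and the same 2 below under each of these 5 scalings. Scaling to the array median or the spike-ins shifts all ratios alike, so it could hardly change these sides. Quantile normalization and loess could, and Scd2 then lay 0.02 and 0.06 above the all-gene median. On the deposited scale Elovl1 also had a probe set above that median, at 0.25, and Scd2 had one below it, at 0. The second probe sets of Elovl5 and Fads2 had 0.39 and 0.41 there. Both exceed the spike-in median ratio of 0.35, so these readings stay above 0 with spike-in scaling.

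**Figure D3:**
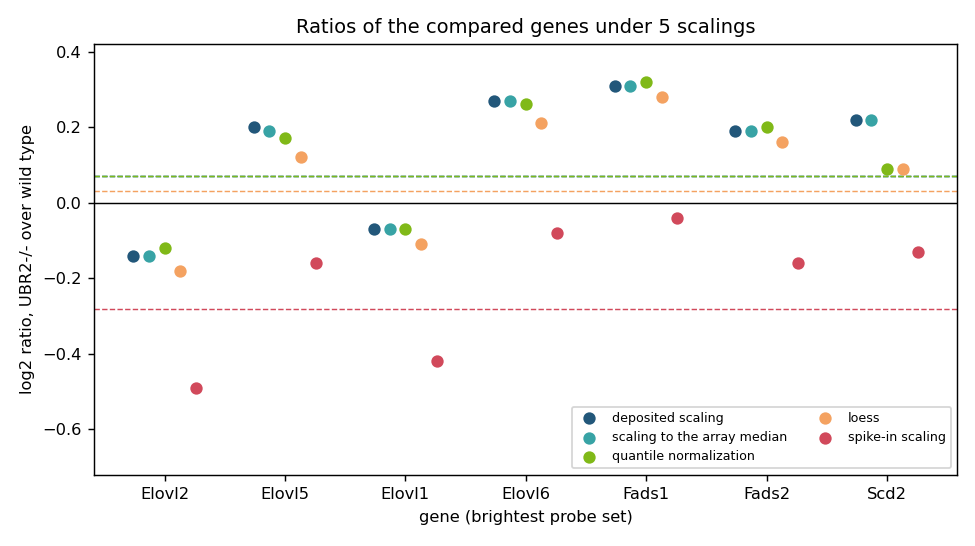
Log2 ratio of the 7 compared genes (brightest probe set) under 5 scalings, with the median of all compared genes under each as a dashed line of the same colour. Spike-in scaling takes all 7 below 0 and the all-gene median to -0.28. Elovl1 and Elovl2 are below and the other 5 above the all-gene median under each scaling. Scaling to the array median or the spike-ins shifts all ratios alike, so it could hardly change these sides.

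The enzymes that work with the elongases and desaturases were then described in 8 lists of other lipid genes, 69 of which were compared. Of these 69, 1 was at least 2-fold lower and 0 at least 2-fold higher, beside 3.52% and 0.346% of all genes, and their median was 0.17, against 0.20 for the elongases and desaturases. With spike-in scaling the medians of all 8 lists were below 0, from -0.21 to -0.09, as was that of all genes. The remaining elongation steps had a median of 0.14 over 5 genes, all within 2-fold. The reductases Hsd17b12 and Tecr had 0.17 and 0.14 (0.54 in the dimmer probe set of Tecr), and the dehydratase Hacd2 had 0.27 while its relative Hacd1 had -0.51, with signals of 286 in wild type and 200 in UBR2-/- testes. Hacd1 was the 1 gene of this list below the all-gene median.

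Desaturases draw electrons from cytochrome b5, and the 5 compared genes of this supply lay within 2-fold, from -0.12 for Cyb5b to 0.18 for the reductase Cyb5r3, whose 3 probe sets ranged from -0.01 to 0.20. The related reductase Cyb5r4 had 0.17. Among further elongase and desaturase genes 2 were compared. Scd1, another stearoyl-CoA desaturase, had 49.6 in wild type and 64.6 in UBR2-/- testes, a ratio of 0.38, and Degs1, the desaturase of dihydroceramide, had 0.14 in its brighter and 0.51 in its other probe set.

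Genes of fatty acid synthesis and its regulators supply the saturated chains on which Elovl6 and Scd2 act. Of 12 compared, 0 were past 2-fold, 8 exceeded the all-gene median, and the median of the list was 0.27. Acacb, an acetyl-CoA carboxylase, was dim and had the highest ratio, 0.83, with signals of 26 and 46.2, and the nuclear receptor gene Rxra had 0.55. Insig2, which restrains the processing of sterol regulatory element binding proteins, had -0.40, and Thrsp had -0.19.

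Activation, binding and membrane incorporation of the finished chains held the lipid genes farthest below 0. Fabp9, the fatty acid binding protein of male germ cells, was 4.38-fold lower, with signals of 1414 in wild type and 322 in UBR2-/- testes. Its 2 probe sets disagreed in size, at -2.13 and -0.80. Acbd6, which binds acyl-CoA, had -0.94 by its brighter and -0.91 by its other probe set, and at the other end of this list the transporter gene Slc27a2 had 0.68 and Slc27a3 0.48. The list had a median of 0.18 over 15 genes, 8 of them higher than the all-gene median. With the floor at the 60th percentile that median was -0.02.

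Agpat3, an acyltransferase known to place docosahexaenoic acid into phospholipids, had 204 in wild type and 112 in UBR2-/- testes, 1.82-fold lower with a ratio of -0.86 in its 1 probe set. Lpgat1, another acyltransferase, had -0.59, with 4 probe sets from -0.61 to -0.30. In the same remodelling list Mboat2 had 0.54 and Lpcat1 0.50, and the median was 0.16 over 11 genes, 0 of them past 2-fold.

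Very long chains are used in sphingolipids and broken down in peroxisomes. The 9 ceramide and sphingolipid genes had a median of 0.21, with Smpd1, acid sphingomyelinase, at 0.61 and Sgms1, a sphingomyelin synthase, at -0.42. The ceramide synthase gene Cers4, under the wild type floor, was at least 1.55-fold higher in UBR2-/- testes. The 10 peroxisomal genes had a median of 0.18, with Acot8 at 0.44, Pex7 at -0.14 and extremes of -0.27 for Acaa1a and 0.59 for Acaa1b, which are near-identical thiolases whose probes may share transcripts. None of the genes of either list was past 2-fold.

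**Figure D4:**
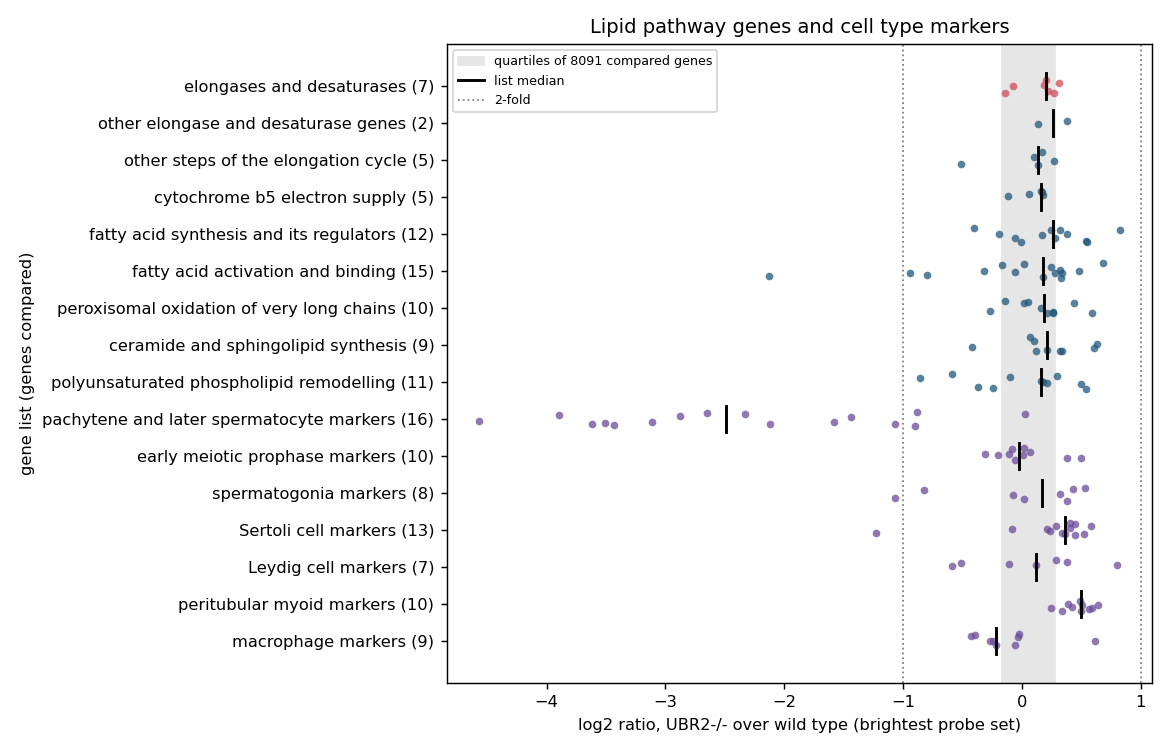
Log2 ratio of each compared gene (brightest probe set) in the elongase and desaturase family (red), 8 lists of other lipid genes (blue) and 7 lists of cell type markers (purple), with list medians as black bars, the quartiles of all compared genes as a grey band and 2-fold as dotted lines. The family lies mostly inside the band, Fabp9 is the 1 lipid gene past 2-fold, and the late spermatocyte markers reach -4.57.

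On the deposited scale several lists of cell type markers lay farther from 0 than the elongases and desaturases. Whole testis RNA cannot tell fewer cells of a type from less RNA per cell. Of 16 compared markers of pachytene and later spermatocytes 13 were at least 2-fold lower and 0 higher, with a median of -2.49. The lactate dehydrogenase Ldhc, one of the 13, had 3709 and 430, and the chaperone Hspa2, within 2-fold, had 1405 and 753. The summed signal over 17 genes was 14556 in wild type and 4844 in UBR2-/- testes, 3.0-fold lower. Tex101, with 2622 and 2670 and a ratio of 0.03, made up 55.1% of the UBR2-/- sum, and without it the sums were 11934 and 2174, 5.49-fold lower. Of the 17 genes 1 was below the floor in wild type and 5 in UBR2-/- testes. The 10 markers of early meiosis had a median of -0.02 and summed signals of 10186 and 10332, with Sycp3 and Sycp1 of the synaptonemal complex at 0.02 and -0.11. The 8 spermatogonia markers had a median of 0.17 and summed signals of 2191 and 1933 over 9 genes. Of these markers 1, Id4, was at least 2-fold lower by its brightest probe set, with 3 probe sets from -1.07 to -0.65. Zbtb16 had 0.02 and the probe sets of Kit ranged from -0.07 to 0.97.

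Of 13 Sertoli cell markers 11 lay above the all-gene median, their own median being 0.36, with summed signals of 12469 and 16086, Sox9 at 0.29 and Wt1 at 0.41. The 1 marker in this list at least 2-fold lower was Amh. Its 1 probe set had 59.7 in wild type and 25.5 in UBR2-/- testes, the latter just above the floor of 24.7. All 10 peritubular myoid markers lay above the all-gene median, their own median being 0.50. Their summed signals were 3133 and 4437, with Acta2 at 0.49 and Myh11 at 0.64. These marker values are on the deposited scale, where the spike-in controls had a median ratio of 0.35, close to the Sertoli median. No spike-in scaled values are given for the marker lists. The Leydig list, with Star at 0.80 (3 probe sets from 0.11 to 0.84) and Cyp11a1 at -0.59, had summed signals of 1226 and 1272. Its median was 0.12 over 7 genes. The macrophage list had -0.22 over 9 genes, with Csf1r at -0.02 and Adgre1 at -0.24, and summed signals of 891 and 814. No Sertoli, myoid or early meiotic marker was below the floor on both arrays, and 1 each of the spermatogonia, Leydig and macrophage markers was. The part of these shifts in cell type markers in the ratios of the elongases and desaturases was not tested.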

How the data were processed

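Total RNA of 17 day old testes was measured on 2 Affymetrix arrays, 1 per genotype. The authors deposited linear intensities per probe set, made with MAS5 (per the submitters' processing notes). Its version and settings are not given in the sources used. The equal 2% trimmed means show that both arrays were scaled to a common level before deposit. Of 22690 probe sets 64 were controls, and the 20380 that the platform annotation, of uncertain age, pairs with 1 gene symbol were used; 20351 of them were matched by Entrez identifier to the GRCm38.p6 gene table for current names. Each gene was represented by the brightest of its probe sets. A gene with 1 array below the floor is given as at least N-fold, against the floor of that array. Counts use a threshold of 2-fold.

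The members, gene lists and naming rule were chosen with earlier results of these data known. The rule names all members, the targeted gene, in each lipid list the 2 genes farthest above and below 0 and any past 2-fold, and the first 2 compared genes of each marker list. Tecr, Id4, Amh and Tex101 were named after their values were seen. Alternatives were scaling to the array median or the spike-ins, quantile normalization, loess (span 0.3), a floor at the 25th or the 60th percentile, a pseudocount of 10, averaging a gene's probe sets, dropping probe sets named _s_at, _x_at or _a_at, and thresholds of 1.5-fold and 3-fold. Marker sums without the member brightest in UBR2-/- testes were added after the data were seen. The steps were checked on simulated data with known changes. As a sign of RNA quality, Actb had a 3' to 5' ratio of 1.75 (wild type) and 1.64 (UBR2-/-). Computations used Python 3.11.15, numpy 2.4.6 and pandas 2.3.3. The number of arrays limits the precision.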

Additional observations from a re-analysis of the deposited data

How the results depend on the processing

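The count of elongases and desaturases at least 2-fold lower was 0 under all alternatives run, including thresholds of 1.5-fold and 3-fold. The count at least 2-fold higher was 0 under all of them except the floor at the 25th percentile, which brought Elovl3 and Fads3 into the comparison and gave 1, Fads3. The median ratio of the family was -0.16 with spike-in scaling, which lowered all ratios, and between 0.12 and 0.27 under the others. For single genes, spike-in scaling moved all 7 ratios by more than the SD of 1 probe set, quantile normalization moved that of Scd2, to 0.09, and the other alternatives moved none, though loess, which also gave 0.09 for Scd2 after rounding, came close. Leaving out _s_at, _x_at and _a_at probe sets removed Elovl1, and the floor at the 60th percentile removed Elovl6. For the medians of the 8 lipid lists, spike-in scaling moved all 8 and the floor at the 60th percentile moved 1, fatty acid activation and binding. Over all compared genes, 285 were at least 2-fold lower and 28 higher. These counts became 528 and 7 with spike-in scaling, 402 and 132 with the lower floor (25th percentile), 152 and 8 with the higher one (60th), and 267 and 17 with a pseudocount. No paired analysis was possible because each genotype had 1 array, and no array could be left out. Dim signals limit what can be said of Elovl3, Elovl4, Elovl6 and Fads3.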

Other observations

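Acsl6, an acyl-CoA synthetase known to favour docosahexaenoic acid, had signals of 177 in wild type and 101 in UBR2-/- testes, a ratio of -0.80. It was chosen after its values were seen, and, like Agpat3 at -0.86, it lay farther from 0 than any compared elongase or desaturase.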
